A study of Culter alburnus with 9 samples.

Results

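The apolipoproteins and lipoprotein lipase (LPL) of Culter alburnus, a cyprinid fish, were described in muscle and myoseptal tissue of runx2b mutants. Members were the loci of the expression table whose Swiss-Prot gene name was APOE, LPL, apoa1, apoa4, apob, apoc1, apoc2, apod or apoo, ignoring case and with a paralog suffix a or b allowed. The rule used no measured value, but the members were chosen with earlier results of these data known. It gave 23 loci of 29791 (0.0772%). Of the 9 names, 8 had at least 1 locus, with 7 loci for apoe, 5 for apob, 3 each for apod and lpl, 2 for apoo, and 1 each for apoa1, apoc1 and apoc2. No locus carried the name apoa4, but 5 of the 7 apoe loci, all named apoeb, had APOA4 as their KEGG name, and the other 2 had APOE.

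The fish were F1 juveniles aged 2 months, bred from founders edited at runx2b with CRISPR/Cas9, and runx2b encodes a transcription factor of bone-forming cells. Ctrl fish were wild type, He fish were heterozygous and Ho fish homozygous for the mutation, with 3 fish in each genotype and 1 poly(A) RNA library per fish. All groups shared their rearing conditions and received no treatment, the wild types came from the same breeding of edited parents, and the tissue was enriched myoseptum with muscle, not purified myoseptum. The comparison asks which transcripts differ as intermuscular bones, the small bones that ossify in the myosepta, are reduced in He and lost in Ho.

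Apolipoproteins coat the lipid particles that carry triglyceride and cholesterol through the blood, and they steer these particles to enzymes and receptors. APOB and APOA1 form the backbone of such particles and are made mainly in liver and gut, whereas APOE is also made by macrophages and epithelia and binds receptors of the LDL receptor family. LPL sits on the capillary wall of muscle and fat and frees fatty acids from passing particles, with APOC2 as its cofactor. APOD and APOO bear the name for historical reasons, since APOD is a lipocalin that carries small lipids and APOO (MIC26) is a subunit of the MICOS complex of the inner mitochondrial membrane.

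Libraries held 15869084 to 21009438 estimated counts, and the 10 most abundant loci took 40.1% to 52.4% of them. Markers of skeletal muscle, the labelled tissue, held 21.9% to 27.3% of the summed TPM, a level per transcript length whose sum is equal in every library. The locus described as runx2b (ABG768_014534) had 11, 27 and 0 counts for the Ctrl fish, 0, 8 and 3 for the He fish and 11, 5 and 2 for the Ho fish. These counts overlap between genotypes and do not check the labels, since an edited transcript can still be counted. Replicates were separate fish. He and Ho were each compared with the same 3 Ctrl fish, so those comparisons are not independent. Ho versus He reused the He and Ho fish of those comparisons, so it is not independent of them either.

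Of the 23 loci, 7 had 0 counts in all 9 libraries, 7 had 1 to 10 counts in total, and 9 had more than 10. The 9 were also the loci that passed the filter on low counts, which kept 14755 loci in all, and the 14 others were not tested. Loci named apoa1, APOC2 and APOB were at or near 0. The apoa1 locus (ABG768_022661), which encodes the main protein of high-density lipoprotein, and APOC2 (ABG768_009025) were at 0 throughout, which allows up to 0.0188 CPM (counts scaled to library size) over the 9 libraries together. The 5 APOB loci had 14 counts in all, with 8 in ABG768_009995, 3 in ABG768_014702, and 1 each in ABG768_014033, ABG768_014308 and ABG768_014703. Each of the 3 counts of ABG768_014702 came from a different Ctrl fish, and the He and Ho libraries had none, which is too few counts to compare genotypes. Of the apoe loci with the KEGG name APOA4, ABG768_009034 had 10 counts, 9 of them in Ho, ABG768_009033 had 4, and ABG768_009030, ABG768_009032 and ABG768_012062 had 0. The apoeb locus ABG768_012061 and the Apod locus ABG768_012620 were also at 0. The filter left these 14 loci out of the tests. A fit with no filter, which took in the 7 of them with counts, called 0 members in each comparison at an adjusted p under 0.05 by edgeR. That fit also called 0 of all loci in each comparison. Each of the 7 had at most 10 counts in total, so this fit cannot tell whether they differ between genotypes. Limits and floors cover counting error only.

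The members were scattered over the genome, with 1 larger cluster. On chromosome 16 of assembly ASM4018292v1, 7 member loci lay in the stretch from APOC2, starting at 29425128, to ABG768_009034, ending at 29506269, with 3 apolipoprotein-like loci without a gene name among them. Among these 7 only the neighbours APOC1 (ABG768_009028, 29434509 to 29436087) and APOE (ABG768_009029, 29441825 to 29443145), 5737 bases apart, had more than 10 counts. The first gene before the cluster, the cell adhesion gene BCAM, had 1175 to 2120 counts per library, and the first after it, MEP1B, had 5 counts in all. A pair of LPL loci, ABG768_002032 (18780099 to 18785645) and ABG768_002033 (18789608 to 18793506), were neighbours on chromosome 10, 3962 bases apart. The other LPL locus, ABG768_013658, lay on chromosome 2 (46056082 to 46062651). APOD ABG768_012621 lay on chromosome 2 (6429753 to 6430601), 7076 bases from its silent copy ABG768_012620, and APOD ABG768_017221 on chromosome 23 (11566922 to 11570034). APOO ABG768_017308 lay on chromosome 23 (14266447 to 14270032) and APOO ABG768_023397 on chromosome 5 (50396315 to 50412144). How reads shared by near-identical copies were assigned is not given in the sources used here, so the split of reads within the LPL pair and within the apoe cluster is uncertain.

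Levels per length were compared between loci in TPM. APOO ABG768_023397 was highest, with a mean of 67.8 TPM and a range of 40.4 to 133.2 over 9 fish, and it exceeded every other member in all 9. APOE ABG768_009029 followed with a mean of 26.2 TPM, but its range of 1.21 to 93.0 overlapped those of all the others. It exceeded the next locus in 5 of 9 fish. By counts, however, APOE lay above APOO ABG768_023397 in Ctrl 1 (1828 against 1320), Ctrl 2 (1198 against 665) and Ho 2 (473 against 408). Their listed lengths were 846 and 883 bases, so in those fish their order depended on the measure. Next came LPL ABG768_002033 at 12.6 TPM, LPL ABG768_013658 at 9.17, APOD ABG768_012621 at 7.46, APOC1 at 7.24 and APOD ABG768_017221 at 7.11. Among these 5 no neighbour in the order exceeded the next in all fish, with 3 to 7 of 9 fish in the stated order. LPL ABG768_002032 at 1.70 TPM and APOO ABG768_017308 at 1.23 were lowest. APOD ABG768_017221 exceeded the former in 9 of 9 fish, and the former exceeded the latter in 6 of 9.

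**Figure D1:**
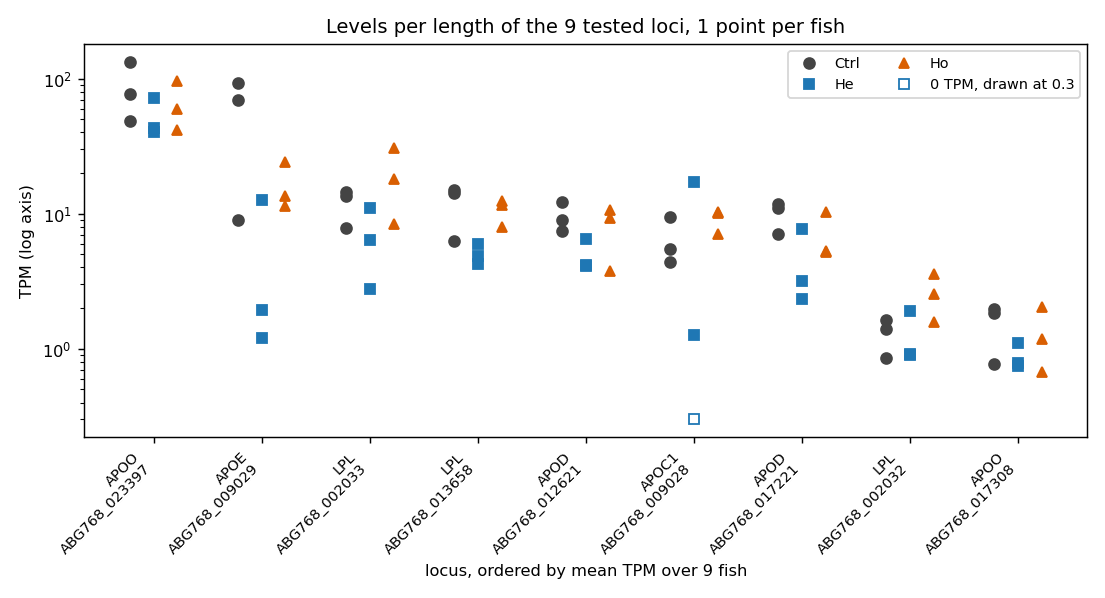
Level of each of the 9 tested loci in TPM on a log axis, 1 point per fish, coloured by genotype and ordered by the mean over 9 fish. By TPM, APOO ABG768_023397 lies above every other member in each fish, whereas APOE runs from 1.21 to 93.0 TPM. APOC1 was at 0 TPM in He 3 and is drawn at 0.3.

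APOE showed the widest spread of the members with counts in every fish. Members and listed genes were compared between fish in TMM-scaled CPM unless TPM is named, whereas markers were compared in TPM. APOE stood at 81.1, 53.6 and 11.9 CPM for Ctrl 1 to 3. The values were 3.12, 13.7 and 1.59 for He 1 to 3 and 13.4, 27.1 and 16.8 for Ho 1 to 3. Ctrl 1 and Ctrl 2 were high, Ctrl 3 lay below He 2 and below every Ho fish, and He 1 and He 3 were the lowest of all, so that the 3 genotypes overlapped in part. The highest library exceeded the lowest 51.1-fold, against 2.41-fold to 7.66-fold for the other members with counts in every fish. Mean levels in CPM were 48.9 ± 34.9 for Ctrl, 6.13 ± 6.59 for He and 19.1 ± 7.14 for Ho (SD, n = 3).

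In He versus Ctrl, APOE was 7.87-fold lower (log2 fold change -2.98, standard error or SE 0.89), and the call depended on the test. Without He 2 the edgeR log2 fold change was -4.36, and with each of the other fish left out in turn it was no nearer to 0 than -2.40, the value without Ctrl 1. edgeR's quasi-likelihood test gave an adjusted p of 0.359, which was not past 0.05, whereas DESeq2 estimated -2.97 (SE 0.76) with an adjusted p of 0.0141, which was. DESeq2 kept this call without Ctrl 3 (adjusted p = 0.00023) or He 2 (7.15e-07), the fish that made the groups overlap. It also kept the call without any 1 of the Ho fish (0.010 to 0.0211). These fits do not test the call, since they drop a fish that lay against the difference or leave the He and Ctrl fish unchanged. Over all loci DESeq2 called 955 without Ctrl 3 and 309 without He 2, against 234 with all fish. DESeq2 lost the APOE call without Ctrl 1 (adjusted p = 0.308 from DESeq2), Ctrl 2 (0.136), He 1 (0.113) or He 3 (0.0751). In Ho versus Ctrl the estimate was -1.36 with an SE of 0.84 (adjusted p of 0.829 by edgeR and 0.808 by DESeq2). In Ho versus He it was 1.62 with an SE of 0.85 (adjusted p of 0.747 by edgeR and 0.634 by DESeq2), with He 2 above Ho 1. Without He 2, the highest He fish, the DESeq2 estimate for Ho versus He became 3.01 (adjusted p of 0.00709). This was the only 1 of 9 DESeq2 fits with a fish left out that called APOE in that comparison. Over all loci DESeq2 called 123 without He 2, against 15 with all fish.

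Markers of skin epithelium were highest in the same fish as APOE, but the order of the lower fish differed. Their summed level, over 66 loci of 22 matched marker names of 24, was 2122, 1061 and 225 TPM for Ctrl 1 to 3, against 95.2, 285 and 179 for He 1 to 3 and 354, 764 and 282 for Ho 1 to 3. Ctrl 1 and Ctrl 2 were the highest 2 fish for both, and within each genotype the fish with the highest APOE also had the highest summed skin level. The skin level was lowest in He 1, however, and APOE in He 3. Ho 1 lay above Ho 3 for the skin level but below it for APOE. The marker levels were in TPM, which is not TMM-scaled. On that scale APOE had the same highest fish. It stood at 93.0, 69.1 and 9.03 TPM for Ctrl 1 to 3. For He 1 to 3 it was 1.93, 12.6 and 1.21, and for Ho 1 to 3 it was 11.4, 24.2 and 13.5. Of the 22 marker names only krt15 was at 0 in every fish. Pigment cell markers met the same description, at 26.6, 20.8 and 5.61 TPM for Ctrl 1 to 3, against 3.05, 6.51 and 6.39 for He 1 to 3 and 6.36, 10.3 and 5.42 for Ho 1 to 3, with dct of 8 matched names at 0. Liver markers ran from 28.2 to 90.5 TPM in Ctrl, 11.1 to 18.7 in He and 30.6 to 49.2 in Ho, with fgg, itih2 and plg of 17 matched names at 0. Macrophage markers, of which all 11 matched names had counts, ran from 39.5 to 67.9 TPM in Ctrl, 23.1 to 47.5 in He and 38.0 to 107.9 in Ho. The part of these cell types in the APOE values was not tested. In bulk tissue, fewer cells of a type and less RNA per cell cannot be told apart.

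The 5 named loci whose pattern over the 9 fish was most like that of APOE were cfl1-a, TFAP2C, Trpm4, Foxq1 and krt18. Likeness was the root mean square difference of log2 CPM after each locus's own mean was removed, taken over 13320 loci with a gene symbol, and APOE's own deviation from its mean was 1.67 on that measure. The difference from APOE was 0.26 for cfl1-a (ABG768_005460), the actin-severing cofilin, which ran at 64.5, 31.0 and 7.79 CPM for Ctrl 1 to 3, against 2.70, 6.51 and 0.83 for He 1 to 3 and 8.09, 20.0 and 9.79 for Ho 1 to 3. It was 0.31 for TFAP2C, a transcription factor of the AP-2 family, 0.40 for the cation channel gene Trpm4, 0.41 for the forkhead factor gene Foxq1 and 0.43 for krt18, a keratin of simple epithelia that is also in the skin marker list. Of the other 8 tested members the closest, APOD ABG768_017221, ranked 967, and APOC1, the neighbour of APOE on chromosome 16, ranked 1381 with a difference of 1.42.

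**Figure D2:**
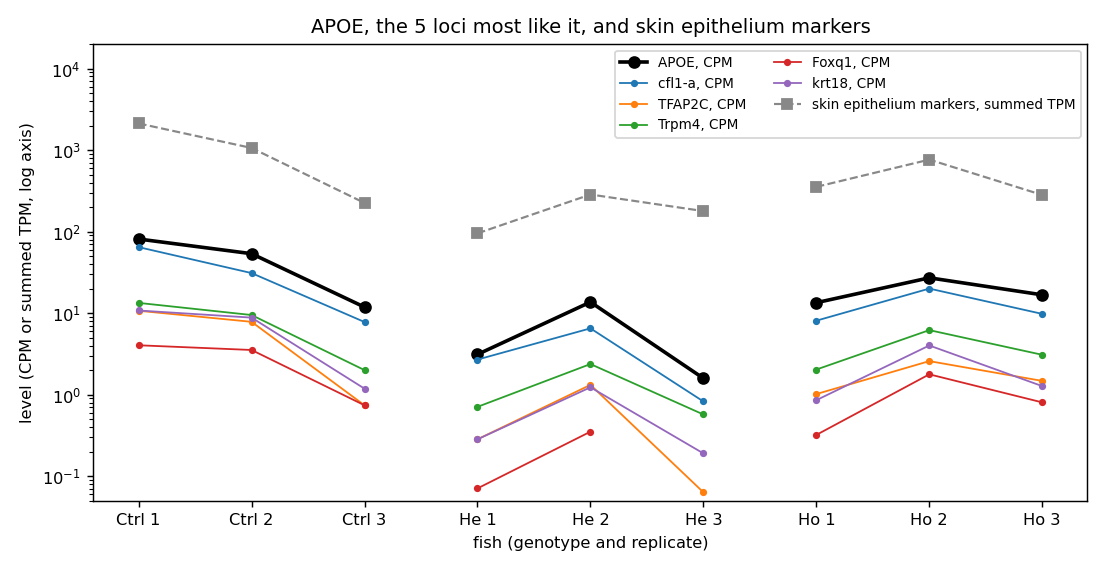
Level of APOE and of the 5 loci most like it (CPM) and summed level of skin epithelium markers (TPM) in each fish, on a log axis; lines join fish of 1 genotype and only guide the eye. All 7 series are highest in Ctrl 1, and APOE, cfl1-a, TFAP2C, Trpm4 and krt18 are lowest in He 3, whereas the skin markers are lowest in He 1. Foxq1 had 0 counts in He 3 and is not drawn there.

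APOC1, a small apolipoprotein that in mammals slows the clearance of triglyceride-rich particles, stood at 0.93, 1.79 and 1.78 CPM for Ctrl 1 to 3, against 0.50, 4.62 and 0 for He 1 to 3 and 3.00, 1.95 and 3.09 for Ho 1 to 3. He 2 was the highest of all fish and He 3 had no count, which allows up to 0.166 CPM at its depth, so He covered the range of the other groups. In CPM every Ho fish lay above every Ctrl fish, as held for 5.92% of all loci, but in TPM Ho 2 (7.07) lay below Ctrl 2 (9.41). The fitted log2 fold change was 0.24 in He versus Ctrl (SE 1.06), 0.84 in Ho versus Ctrl (1.06) and 0.60 in Ho versus He (1.05), and edgeR gave adjusted p-values of 0.958, 0.934 and 0.936. In He versus Ctrl the sign of APOC1 turned in edgeR without He 2 (-2.59) or without Ctrl 1 (-0.016), under the replicate block (-0.34) and on log2(TPM + 1) (-1.05), so no direction is given. Without He 2, the DESeq2 estimate for Ho versus He became 3.46 (adjusted p = 0.0129). This was the only 1 of 9 DESeq2 fits with a fish left out that called APOC1 in that comparison. Over all loci DESeq2 called 123 without He 2, against 15 with all fish. The ratio of APOE to APOC1 in CPM ran from 87.05 in Ctrl 1 to 2.96 in He 2, so that these neighbours did not keep a fixed ratio.

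In CPM each of the 3 LPL loci had its highest mean in Ho, and neither tool called a difference with all 9 fish. For ABG768_013658 the means of Ho and Ctrl were close, at 14.4 and 13.96 CPM, and their order turned in TPM (10.7 and 11.8) and, by the fitted log2 fold change, without Ctrl 2 (-0.34), Ho 1 (-0.069) or Ho 3 (-0.055). LPL ABG768_002033, the most abundant, stood at 12.8, 12.2 and 11.2 CPM for Ctrl 1 to 3, against 4.82, 7.52 and 15.6 for He 1 to 3 and 22.9, 36.9 and 11.2 for Ho 1 to 3. Ho 1 and Ho 2 lay above all other fish, and Ho 3 was level with Ctrl 3. In Ho versus He it was 2.54-fold higher (log2 fold change 1.35, SE 0.48, adjusted p of 0.730 by edgeR and 0.441 by DESeq2). Of 9 DESeq2 fits with a fish left out, only 1 called it, without He 3, the highest He fish (adjusted p = 0.0327). Over all loci DESeq2 called 35 without He 3, against 15 with all fish. In Ho versus Ctrl LPL ABG768_002033 was 1.96-fold higher (log2 fold change 0.97, SE 0.48, adjusted p of 0.783 by edgeR). In He versus Ctrl the log2 fold change was -0.38 (SE 0.48 and adjusted p 0.819 by edgeR).

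LPL ABG768_002032, its neighbour, stood at 2.31, 2.46 and 2.595 CPM for Ctrl 1 to 3, against 2.91, 1.98 and 4.89 for He 1 to 3 and 5.57, 7.799 and 4.29 for Ho 1 to 3. In CPM the Ctrl fish lay close together. Every Ho fish lay above them, as held for 5.92% of all loci, while He 3 lay among the Ho fish. In TPM, however, the Ctrl fish were farther apart, at 1.39, 1.62 and 0.86, and Ho 3 (1.58) lay below Ctrl 2. In Ho versus Ctrl it was 2.40-fold higher (log2 fold change 1.26, SE 0.35, adjusted p of 0.671 by edgeR and 0.187 by DESeq2). In Ho versus He it was 1.81-fold higher (log2 fold change 0.86, SE 0.35, adjusted p of 0.730 by edgeR), and in He versus Ctrl the log2 fold change was 0.40 (SE 0.35 and adjusted p 0.713 by edgeR).

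LPL ABG768_013658, on chromosome 2, stood at 14.2, 5.55 and 22.2 CPM for Ctrl 1 to 3, against 7.73, 5.94 and 8.96 for He 1 to 3 and 16.6, 10.2 and 16.4 for Ho 1 to 3. Every Ho fish lay above every He fish, as held for 6.03% of all loci, and the Ctrl fish covered both. The log2 fold change was 0.93 in Ho versus He (SE 0.44 and adjusted p 0.737 by edgeR), -0.88 in He versus Ctrl (SE 0.44 and adjusted p 0.524) and 0.05 in Ho versus Ctrl (SE 0.43 and adjusted p 0.990). By the likeness measure described above, LPL ABG768_002032 ranked 143 to LPL ABG768_002033 while LPL ABG768_013658 ranked 5902 of 13320.

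Summed over the 3 loci, LPL stood at 29.3, 20.2 and 35.96 CPM for Ctrl 1 to 3, against 15.5, 15.4 and 29.4 for He 1 to 3 and 44.99, 54.9 and 31.9 for Ho 1 to 3. In CPM He 3 and Ctrl overlapped. In TPM the sums were 29.2, 22.5 and 23.6 for Ctrl, against 7.89, 12.2 and 18.9 for He and 32.9, 42.0 and 21.6 for Ho, and there every He fish lay below every other fish. The separation in He thus depended on the scaling. ABG768_002033 and ABG768_013658 shared most of the sum, with 33.4% to 72.5% and 19.0% to 63.0% of TPM, and ABG768_002032 held 3.64% to 11.4%. These shares depend on the measure. In Ctrl 1, ABG768_002032 had 52 counts against 288 for ABG768_002033, but 1.39 against 13.6 TPM. Their listed lengths were 1503 and 1524 bases, so relative to ABG768_002033 it was lower by TPM than by counts.

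The 5 named loci most like LPL ABG768_002033, whose own deviation was 0.79, were VCAM1, atp1b1, RGS4, ORMDL2 and JUN. The difference was 0.23 for VCAM1, an adhesion molecule of vessel walls, at 4.48, 2.46 and 3.04 CPM for Ctrl 1 to 3, against 1.42, 2.20 and 3.81 for He 1 to 3 and 5.46, 9.003 and 2.55 for Ho 1 to 3. For atp1b1, a subunit of the sodium pump, it was 0.24, with 75.2 CPM in Ho 2 against 7.87 to 31.0 in the other fish. It was 0.28 for RGS4, a regulator of G-protein signalling, 0.31 for ORMDL2, a regulator of sphingolipid synthesis, and 0.32 for the AP-1 subunit gene JUN. As with LPL ABG768_002033, the highest fish was Ho 2 for all 5. Adipocyte markers in TPM ran in the same order within each genotype as LPL ABG768_002033 in CPM. In TPM, however, LPL ABG768_002033 was higher in Ctrl 2 (14.6) than in Ctrl 1 (13.6), so the order in Ctrl then differed. The adipocyte markers stood at 43.9, 34.3 and 14.8 TPM for Ctrl 1 to 3. For He 1 to 3 they were at 9.17, 14.8 and 20.1, and for Ho 1 to 3 at 23.3, 32.6 and 14.5. Their highest fish was Ctrl 1. Of their 8 matched names plin1 was at 0. Macrophage markers were highest in Ho 2, at 107.9 TPM, as were those of gut epithelium, at 46.2 TPM. The part of these cell types in the LPL values was not tested.

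In CPM both APOD loci, like 8.33% of all loci tested, were lower in every He fish than in every Ctrl fish. Neither tool called the difference for either locus. In TPM the separation held for ABG768_012621 only, since ABG768_017221 had 7.70 TPM in He 2 and 7.11 in Ctrl 3. APOD ABG768_017221 stood at 5.28, 5.01 and 5.12 CPM for Ctrl 1 to 3, against 2.06, 4.58 and 2.29 for He 1 to 3 and 6.64, 3.21 and 3.62 for Ho 1 to 3. In CPM the Ctrl fish were nearly level, with an SD of 0.136, and Ho covered them. In TPM the Ctrl fish were less level, at 11.1, 11.8 and 7.11. In He it was 1.71-fold lower (log2 fold change -0.77, SE 0.37, adjusted p of 0.504 by edgeR and 0.556 by DESeq2). APOD ABG768_012621 stood at 4.53, 5.82 and 6.08 CPM for Ctrl 1 to 3, against 4.12, 4.36 and 3.43 for He 1 to 3 and 7.82, 2.64 and 7.18 for Ho 1 to 3. Ho held both the highest and the lowest fish. In He it was 1.38-fold lower (log2 fold change -0.46, SE 0.36, adjusted p of 0.684 by edgeR). APOD is known from nerve and glia, and glial markers ran from 394 to 473 TPM in Ctrl, 207 to 428 in He and 332 to 680 in Ho, with all 5 matched names detected. The part of glia in the APOD values was not tested.

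Both APOO loci overlapped between genotypes in every comparison. APOO ABG768_023397 stood at 58.6, 29.8 and 32.4 CPM for Ctrl 1 to 3, against 32.5, 23.2 and 47.9 for He 1 to 3 and 56.9, 23.4 and 37.3 for Ho 1 to 3. Each genotype had 1 fish well above its other 2. The fitted level was 1.17-fold lower in He than in Ctrl, 1.03-fold lower in Ho than in Ctrl and 1.14-fold higher in Ho than in He. The SE of each log2 fold change was 0.40. APOO ABG768_017308 stood at 1.51, 1.25 and 0.89 CPM for Ctrl 1 to 3, against 1.06, 1.06 and 0.76 for He 1 to 3 and 1.23, 1.78 and 0.74 for Ho 1 to 3. Its log2 fold changes were -0.35, 0.03 and 0.38. ABG768_023397 held 95.4% to 98.9% of the APOO transcripts in every fish by TPM.

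**Figure D3:**
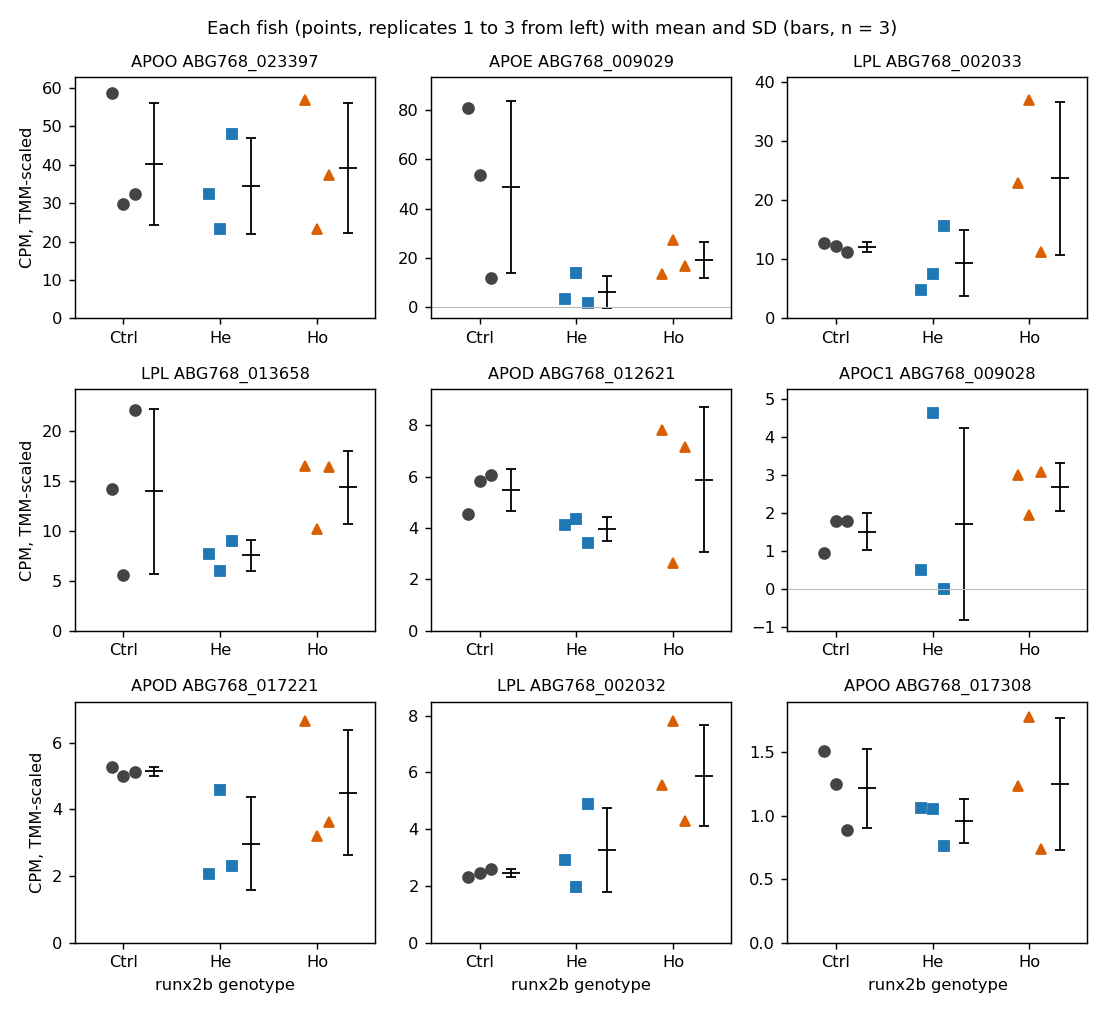
TMM-scaled CPM of the 9 tested loci in each fish (points) with the mean and SD of 3 fish (bars), by runx2b genotype. APOE in Ctrl runs from 11.9 to 81.1 CPM. Both APOD loci, like 8.33% of all loci, lie lower in each He fish than in each Ctrl fish. LPL ABG768_002032 and APOC1, like 5.92% of all loci, lie higher in each Ho fish than in each Ctrl fish. In TPM the separations of APOD ABG768_017221, LPL ABG768_002032 and APOC1 do not hold.

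Counted over the 9 tested members, edgeR called 0 in each comparison at an adjusted p under 0.05, as it called 0% of the 14755 loci in each. At an unadjusted p under 0.05 edgeR had 1 member in He versus Ctrl (APOE), where 10.4% of all loci passed, 1 in Ho versus Ctrl (LPL ABG768_002032), where 6.5% passed, and 2 in Ho versus He (LPL ABG768_002032 and ABG768_002033), where 6.79% passed. DESeq2 called 1 of 9 in He versus Ctrl, the APOE locus, against 1.48% of the 15785 loci it tested. It called 0 in Ho versus Ctrl, where 0.381% of loci were called, and 0 in Ho versus He, where 0.0848% were. With 9 members these counts hold too few loci to be read as a share.

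Groups were also read by overlap in CPM. In He versus Ctrl, 2 members lay below without overlap, both APOD loci, against 8.33% of all loci, and 0 lay above, against 6.28%. In Ho versus Ctrl, 0 lay below, against 5.32%, and 2 lay above, LPL ABG768_002032 and APOC1, against 5.92%. In Ho versus He, 0 lay below, against 6.23%, and 1 lay above, LPL ABG768_013658, against 6.03%. In TPM the separations of APOD ABG768_017221, LPL ABG768_002032 and APOC1 did not hold. By sign alone, 7 of 9 log2 fold changes were below 0 in He versus Ctrl, 3 in Ho versus Ctrl and 0 in Ho versus He, beside 50.73%, 51.55% and 48.58% of all loci. The members' median log2 fold change was -0.38, 0.05 and 0.60 in the 3 comparisons, and that of all loci -0.01, -0.01 and 0.01. On log2 of TPM plus 1 the median of all loci moved to -0.28, -0.20 and 0.10 and that of the members to -0.86, -0.14 and 0.66, with 9, 6 and 0 members below 0. The sign of the members' median in Ho versus Ctrl thus depended on the scaling.

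**Figure D4:**
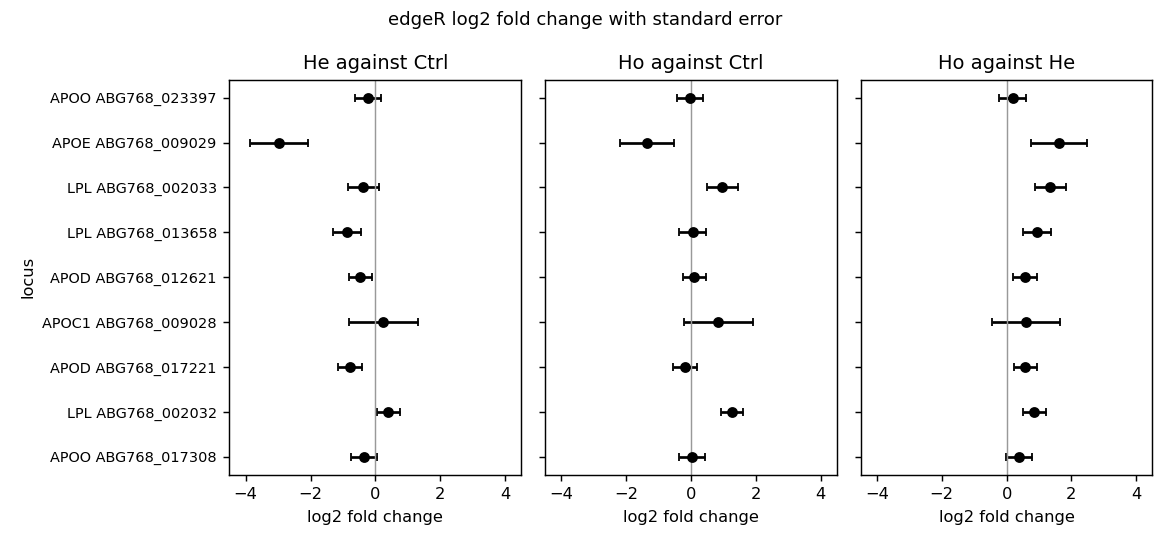
edgeR log2 fold change (points) with SE (bars) of the 9 tested loci in the 3 comparisons, with a line at 0. APOE in He versus Ctrl lies farthest from 0, at -2.98, and all 9 points lie above 0 in Ho versus He. There the SE bars of APOC1 and of both APOO loci cross 0, and edgeR called no member in any comparison. He versus Ctrl and Ho versus Ctrl share the Ctrl fish, and Ho versus He reuses their He and Ho fish.

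Other genes of lipoprotein metabolism were read from 4 lists, of which 51 loci were tested. edgeR called 0 of them in each comparison, as it called 0% of all loci. DESeq2 called 1, the FABP7 locus ABG768_013796 in He versus Ctrl, where it called 1.48% of all loci. It called none of them in Ho versus Ctrl or Ho versus He, beside 0.381% and 0.0848% of all loci. At an unadjusted p under 0.05 edgeR had 5 of the 51 in He versus Ctrl, beside 10.4% of all loci, 3 in Ho versus Ctrl, beside 6.5%, and 7 in Ho versus He, beside 6.79%. Shares of all loci with a log2 fold change below 0 were 50.73%, 51.55% and 48.58% in these comparisons, and the counts by sign in the lists stand beside them. Of 12 tested loci of receptors that take up lipoproteins, 10 had a log2 fold change below 0 in He versus Ctrl (median -0.43), 7 in Ho versus Ctrl (median -0.05) and 1 in Ho versus He (median 0.52). The sorting receptor gene sort1 (ABG768_026479) stood at 8.08, 7.74 and 9.86 CPM for Ctrl 1 to 3, against 5.25, 4.399 and 2.35 for He 1 to 3 and 5.46, 9.003 and 6.24 for Ho 1 to 3. For He the log2 fold change was -1.09 (SE 0.31 and adjusted p 0.359 by edgeR and 0.111 from DESeq2). Every He fish lay below every Ctrl fish for this sort1 locus and for SORL1, 2 of the 12 loci, against 8.33% of all loci. The related receptor gene SORL1 had -0.51 in He (adjusted p 0.482 by edgeR), and the high-density lipoprotein receptor gene SCARB1 had -0.70 (adjusted p = 0.490).

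Of 13 tested loci of lipoprotein assembly, remodelling and LPL control, 7 lay below 0 in He versus Ctrl (median -0.02). Below 0 were 5 in Ho versus Ctrl (median 0.13) and 5 in Ho versus He (median 0.10). ANGPTL4, an inhibitor of LPL, stood at 27.3, 14.2 and 19.8 CPM for Ctrl 1 to 3, against 51.2, 15.2 and 51.6 for He 1 to 3 and 45.1, 29.0 and 29.5 for Ho 1 to 3. Every Ho fish lay above every Ctrl fish, which held for 2 of the 13 loci and for 5.92% of all loci. For ANGPTL4, He 2 lay among the Ctrl fish. The log2 fold change of ANGPTL4 was 0.76 in Ho versus Ctrl (adjusted p 0.824 by edgeR) and 0.94 in He versus Ctrl (0.504). Among the tested loci of the cholesterol exporter gene ABCA1, ABG768_006620 had -2.08 in He (adjusted p 0.421 by edgeR). It went from 1.72 ± 1.5 CPM in Ctrl to 0.39 ± 0.30 in He (SD, n = 3). The more abundant ABG768_001022 had 0.05 in He, at means of 12.9 CPM in Ctrl and 13.5 in He, and ABG768_003359 had 0.11. CETP, which swaps lipids between particles, had -1.16 in He (adjusted p 0.427 by edgeR) and 1.29 in Ho versus He (adjusted p = 0.730).

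Of 5 tested loci of other apolipoproteins, 4 lay below 0 in He versus Ctrl (median -0.32). Below 0 were 1 in Ho versus Ctrl (median 0.05) and 2 in Ho versus He (median 0.53). For APOOL, the MICOS partner of APOO, the log2 fold change in He was -0.47 (adjusted p 0.522 by edgeR), for the plasma protein gene APOH it was -1.41 (0.554) and for the chaperone gene CLU -0.32 (0.729). Of 21 tested loci of lipid handling within cells, 14 lay below 0 in He versus Ctrl (median -0.26), where 50.73% of all loci did, 9 in Ho versus Ctrl (median 0.10) and 3 in Ho versus He (median 0.36). The fatty acid-binding protein gene FABP7 (ABG768_013796) stood at 8.39, 1.66 and 0.82 CPM for Ctrl 1 to 3, against 0.14, 0.09 and 0 for He 1 to 3 and 0.43, 1.78 and 0.80 for Ho 1 to 3. Every He fish lay below all other fish. Without overlap, 2 of the 21 loci lay lower in He than in Ctrl, against 8.33% of all loci. DESeq2 called FABP7 ABG768_013796 in He (log2 fold change -5.56, adjusted p = 0.000955), whereas edgeR did not (adjusted p = 0.359). Its He values lay under the 0.151, 0.143 and 0.166 CPM (not TMM-scaled) that 0 counts allow at the depths of He 1 to 3. The size of this fold change is therefore uncertain. Without Ctrl 1, the fish at 8.39 CPM, DESeq2 no longer called this FABP7 locus (log2 fold change -4.01, adjusted p = 0.149). Without He 1 DESeq2 gave -6.18 (adjusted p = 0.0072). The other tested FABP7 loci had log2 fold changes in He of 0.12 (ABG768_009671, adjusted p 0.974 by edgeR) and -0.65 (ABG768_014483, 0.898). The lipase locus ABG768_020924 had -1.87 in He (adjusted p 0.386 by edgeR). Its gene name was Pnpla2, but its closest database hit was patatin-like phospholipase domain containing 3. The other tested Pnpla2 locus, ABG768_017864, with a hit to domain-containing protein 2 of that family, had 0.34 in He (0.775). SREBF1, a transcription factor of lipid synthesis, had 0.46 (0.537).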

How the data were processed

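RNA was sequenced from 9 fish, 3 of each genotype, with groups taken from the sample titles. The authors filtered the reads and aligned them to the C. alburnus genome, while the aligner and the counting tool are not given in the sources used here. They deposited an estimated count per locus that is not scaled to library size, and TPM, which the authors scaled to an equal sum per library. The FPKM they deposited was not used, nor was the proteome. The table held 28228 annotated loci and 1563 loci assembled from reads. Coordinates came from the RefSeq gene table of ASM4018292v1, matched by locus tag.

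Estimated counts were rounded to whole numbers; all 207 member values were whole already, as were 94.3% of all values. edgeR 4.0.16 in R 4.3.3 was used with filterByExpr, TMM factors (0.709 to 1.40), glmQLFit with robust dispersions and glmQLFTest over all 9 libraries, with p-values adjusted by Benjamini and Hochberg over 14755 loci and called under 0.05. The study's threshold, an adjusted p under 0.01 with a log2 fold change of at least 1, was counted too. Standard errors were the log2 fold change over the square root of F. CPM were TMM-scaled, with a prior count of 2 on the log2 scale. Alternatives were DESeq2 1.42.0, RLE scaling, no filter, 6 libraries per comparison, a replicate block, limma 3.58.1 on log2 of TPM plus 1 or 0.1, and leaving out each fish. The pipeline was tested on simulated data.

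Named loci were all members with counts, the 5 loci most like APOE and the top LPL locus, and the 3 of each list with the smallest p in He versus Ctrl. Members and lists were chosen with earlier results of these data known. Limits for 0 counts used 3 counts. Markers were read as summed TPM; those of gut epithelium ran from 6.46 to 46.2 TPM.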

Additional observations from a re-analysis of the deposited data

How the results depend on the processing

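Across all loci DESeq2 called 234, 62 and 15 in the He versus Ctrl, Ho versus Ctrl and Ho versus He comparisons, where edgeR called 0, and edgeR on the 6 libraries of Ho versus Ctrl called 8. DESeq2 called 1 member in He versus Ctrl. With 1 fish left out in turn, by edgeR or by DESeq2 (the latter chosen after seeing the data), all-locus counts ran from 0 to 955, 0 to 488 and 0 to 145, and member counts from 0 to 1, 0 to 0 and 0 to 2; edgeR alone reached 115 and 7 without Ctrl 3 and 5 in each without He 1. Replicate numbers did not pair the fish (same-number correlations -0.257 to 0.259), and with the replicate block edgeR called 0 everywhere while APOC1 in He versus Ctrl turned to -0.34. Of 189 member log2 fold changes under the other settings, 177 kept direction and side, 11 turned sign and 1, APOE by DESeq2, passed the threshold. The signs turned by limma (log2 of TPM plus 1, then plus 0.1) were those of LPL ABG768_002032 (-0.047, -0.092) and APOC1 (-1.05, -2.22) in He versus Ctrl, and of APOD ABG768_012621 (-0.33, -0.38), LPL ABG768_013658 (-0.0745, -0.0739) and APOO ABG768_017308 (-0.14, -0.24) in Ho versus Ctrl; the medians of all loci moved further below 0, to -0.28 and -0.20 with plus 1. With 1 fish left out, APOC1 ran from -2.60 to 0.82 and APOO ABG768_023397 from -0.52 to 0.17 in He versus Ctrl. In Ho versus Ctrl, APOD ABG768_012621 ran from -0.16 to 0.47, LPL ABG768_013658 from -0.34 to 0.56, APOD ABG768_017221 from -0.59 to 0.0153, APOO ABG768_017308 from -0.30 to 0.30 and APOO ABG768_023397 from -0.41 to 0.35, and APOO ABG768_023397 from -0.21 to 0.49 in Ho versus He. The 14 loci under the filter had at most 10 counts each.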

Other observations

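Beside the members, 10 loci without a matching gene name were described as apolipoproteins by their closest database hit. Of these, 5 had 0 counts in all 9 libraries and 4 had at most 6 counts in total. The exception was MSTRG.16022, a locus assembled from reads with a hit to apolipoprotein B-100 of another cyprinid, which had 263 counts in all and at most 38 in a single library. It has no coordinates in the files, and no comparison was made for it.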
